A study of Boehmeria nivea with 18 samples.

Results

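Of the 6733 long non-coding RNAs (lncRNAs) listed in the stem bark libraries of ramie, 241 measured at least 4000 bp, and their levels are described here. They were chosen by length alone, as all transcripts with an LTCONS identifier (the prefix of assembled lncRNAs) of at least 4000 bp, and no expression value entered the choice. Ramie (Boehmeria nivea) is a bast fiber crop of which the cultivar Zhongzhu 1 was studied. Stem bark from the middle of the stem (MPS), where fiber cells were thickening their secondary walls, was compared with bark from the top of the stem (TPS), where this thickening had not begun. Each section had 3 replicates, the bark was collected from 5 plants and pooled, and the labels name no treatment or transgene for either section. The labels give an age of 40 days, and the methods of the study a younger one. Bark holds phloem, fiber, cortex and epidermal cells together, so that fewer cells of a type and less RNA per cell cannot be told apart. The comparison asks which of these RNAs differ between bark with and without growing fiber walls.

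lncRNAs are transcripts without a recognised protein-coding frame. In plants, known lncRNAs act by recruiting chromatin-modifying complexes, by overlapping genes in antisense, or by binding miRNAs in place of mRNAs, and some are precursors of small RNAs. Bast fibers are phloem cells that elongate near the stem tip and then lay down thick, cellulose-rich walls lower in the stem. The sources used here give none of the 241 transcripts a function, and neither sequences nor genomic positions nor coding potential were analysed here.

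The 6 libraries held 49056682 to 52971221 expected counts each, which are the reads that RSEM assigned to transcripts. Of 5 genes that the study links to secondary walls, fixed as a check of the sections, 3 had all MPS libraries above all TPS libraries (the MYB46/MYB83 match whole_GLEAN_10013420 and the laccases whole_GLEAN_10014338 and whole_GLEAN_10014339) and 1 lay lower (the IRX15L match whole_GLEAN_10008444). The laccase whole_GLEAN_10014338 was near the limit of listing, at 0.03, 0.16 and 0.01 FPKM in MPS, against 0 FPKM in all TPS libraries, and was not tested by edgeR. The laccase whole_GLEAN_10014339 had 1.87, 0.6 and 0.07 FPKM in MPS, against 0.01, 0.06 and 0.05 FPKM in TPS. It was not tested by edgeR either, and MPS replicate 3 lay barely above the highest TPS library. The fifth, the cellulose synthase whole_GLEAN_10024039, had 42.7 FPKM in MPS replicate 1, against 51.1 FPKM in TPS replicate 1, whereas MPS replicates 2 and 3 had 190 and 215 FPKM, against 14.9 and 12.2 FPKM in TPS replicates 2 and 3. FPKM is the number of fragments scaled to transcript length and to library depth. The study chose these genes on the same samples, and they were matched by the digits of their identifiers, whose prefix differs from that in the study. In both sections, replicate 1 stood apart from replicates 2 and 3, and its part in each result is given where it matters.

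The 241 lncRNAs were 3.58% of the lncRNAs. Their lengths ran to 76889 bp, with a median of 5312 bp and quartiles of 4431 and 7053 bp, and the other 6492 lncRNAs had a median of 756 bp. In all, 100 measured under 5000 bp, 113 measured 5000 to under 10000 bp and 28 measured at least 10000 bp. Only 7 exceeded 20000 bp, and 3 of these were close to each other in length, namely LTCONS_00030085 (76889 bp), LTCONS_00030089 (76289 bp) and LTCONS_00030090 (75976 bp). The members nearest to the limit were LTCONS_00014404 (4000 bp) and LTCONS_00050261 (4003 bp). LTCONS_00014404 had 0.28, 0.34 and 0.27 FPKM in MPS, against 0.62, 0.33 and 0.60 FPKM in TPS. LTCONS_00050261 had 2.76, 1.52 and 1.51 FPKM in MPS, against 1.49, 0.98 and 1.26 FPKM in TPS. Just outside the limit were LTCONS_00043028 (3989 bp; 9.37, 13.1 and 10.5 FPKM in MPS, against 2.38, 8.43 and 8.18 FPKM in TPS) and LTCONS_00026711 (3974 bp; 0.16, 0 and 0.26 FPKM in MPS, against 0.24, 0.63 and 0.17 FPKM in TPS).

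Many of these transcripts are not independent of each other. By serial number, 103 members lay in 42 runs of 2 to 6 adjacent numbers, while 138 stood alone. Only strictly following numbers made a run. Abundant members of nearby numbers, such as LTCONS_00022099, LTCONS_00022101 and LTCONS_00022106, or LTCONS_00030071 and LTCONS_00030085, thus counted as alone. Whether a run or such a group is 1 locus is not given in the sources. Expected counts were fractional in at least 1 library for 198 members, because RSEM divided reads that fit several transcripts, and whole in all 6 libraries (within 0.005) for 43. Of the lncRNAs under 4000 bp, 53.7% had whole counts throughout, against 17.8% of the members. For 3 pairs of members, length and all 6 counts were identical (LTCONS_00003907 and LTCONS_00003908, LTCONS_00024048 and LTCONS_00024049, LTCONS_00027408 and LTCONS_00027409), so that each pair holds 1 measurement.

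Per length of transcript, the very long lncRNAs were expressed at low levels, as were the shorter ones. The median over members of the mean FPKM in the 6 libraries was 1.07, with quartiles of 0.482 and 4.04. For lncRNAs under 4000 bp the median was 0.778, and for the 1414 assembled coding transcripts of at least 4000 bp it was 2.60. These medians describe the classes and were not tested. A mean of at least 1 FPKM was reached by 132 members (54.8%), at least 10 FPKM by 27 and at least 100 FPKM by 6. The level did not fall with length. The median was 1.11 FPKM under 5000 bp, 1.00 FPKM from 5000 to under 10000 bp and 6.74 FPKM at 10000 bp and more.

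**Figure D1:**
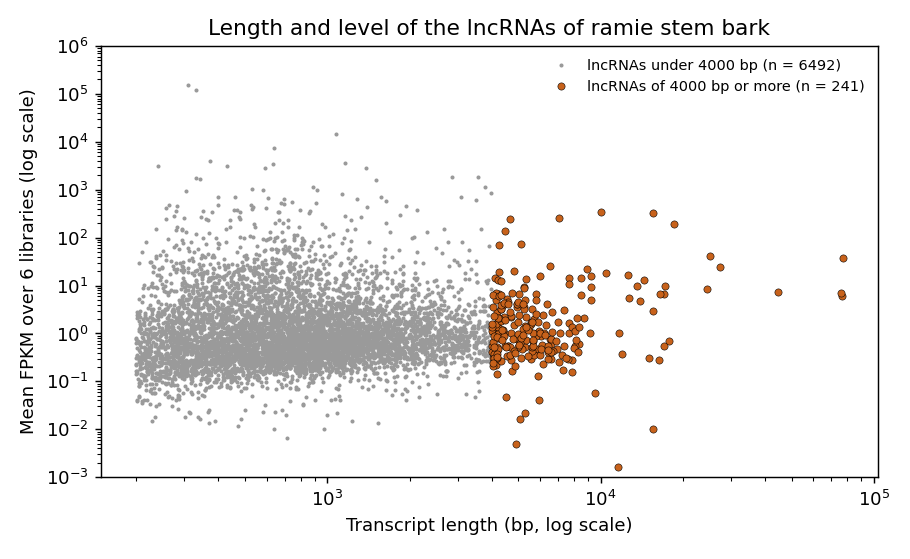
Mean FPKM over the 6 libraries (y axis, log scale) against transcript length in bp (x axis, log scale) for 6733 lncRNAs, each point 1 transcript. Orange points are the 241 of at least 4000 bp, whose median was 1.07 FPKM against 0.778 FPKM for the grey points, and which reach 76889 bp on the right.

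Detection was high in both sections. Of the 241 members, 229, 220 and 228 were listed in MPS replicates 1, 2 and 3, against 230, 219 and 220 in TPS (two-sided exact permutation test, p = 0.9). Both replicate 1 libraries listed at least 229, and the ranges of the sections overlapped. In all 6 libraries, 200 members (83.0%) were listed, against 68.3% of the lncRNAs under 4000 bp and 87.6% of the long coding transcripts. Within the shorter lncRNAs this share was 46.2% from 200 to under 500 bp and 87.4% from 2000 to under 4000 bp. The files list values down to 0.01 FPKM after rounding, and the lowest listed member corresponded to 0.00505 FPKM. At the median member length, 0.005 FPKM was 1.26 to 1.37 counts per library, and at the greatest length 18.2 to 19.8 counts, so that an unlisted long transcript may have had reads.

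Listing in a single section was rare and rested on few libraries. In MPS alone, 3 members were listed, namely LTCONS_00017995 with 379 expected counts in replicate 1 only, LTCONS_00022715 with 6.21 and 41.0 counts in replicates 1 and 3, and LTCONS_00027811 with 20.8 and 12.1 counts in replicates 1 and 2. In TPS alone, LTCONS_00003906 had 7.12 counts in replicate 2 and LTCONS_00022713 had 5.51 counts in replicate 1. These 5 were named after their values were seen. None was listed in all 3 libraries of its section. LTCONS_00017995, LTCONS_00003906 and LTCONS_00022713 lie in runs of adjacent numbers with other members. Whether their listing depends on how RSEM divided reads within a run was not tested.

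The reads of the very long lncRNAs made up a larger share of the library in each MPS sample than in any TPS sample. They took 3.26, 2.83 and 2.80% of all expected counts in MPS replicates 1, 2 and 3, against 2.35, 2.30 and 2.30% in TPS. The mean was 2.96 ± 0.259% in MPS and 2.31 ± 0.0273% in TPS (SD, n = 3 each), a difference of 0.650 percentage points (two-sided exact permutation test, p = 0.1, the lowest value this permutation test can give for 3 against 3). The sections did not overlap, and the MPS libraries were more spread. lncRNAs under 4000 bp took 15.7, 13.2 and 15.4% in MPS, against 13.5, 12.5 and 12.4% in TPS, and the sections overlapped (exact permutation test, p = 0.2), with MPS above TPS within each pair. As a share of lncRNA counts alone, the members held 17.2, 17.7 and 15.4% in MPS, against 14.8, 15.5 and 15.6% in TPS, which overlapped (exact permutation test, p = 0.3). The members of at least 10000 bp alone held 12.3, 13.5 and 11.7% of lncRNA counts in MPS, against 9.96, 11.5 and 11.6% in TPS, without overlap (exact permutation test, p = 0.1, the smallest possible), though the lowest MPS library lay close to the highest TPS library.

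Most of the excess in MPS lay in the longest transcripts. The 28 members of at least 10000 bp took 2.32, 2.16 and 2.13% of all counts in MPS, against 1.58, 1.71 and 1.71% in TPS, a ratio of the means of 1.32 (exact permutation test, p = 0.1, the smallest possible). From 5000 to under 10000 bp the share was 0.531, 0.382 and 0.389% in MPS, against 0.414, 0.370 and 0.356% in TPS (exact permutation test, p = 0.4). Under 5000 bp it was 0.412, 0.294 and 0.282% in MPS, against 0.357, 0.224 and 0.235% in TPS (exact permutation test, p = 0.5). In both shorter bands the sections overlapped and replicate 1 had the highest share of its section, while MPS was above TPS within each of the 3 pairs of same-numbered replicates. The summed share of coding transcripts of at least 10000 bp differed in the same direction. The 42 assembled coding transcripts of this length took 3.98, 3.90 and 3.77% in MPS, against 3.01, 3.18 and 3.03% in TPS (exact permutation test, p = 0.1). All 1414 assembled coding transcripts of at least 4000 bp did not follow. They took 13.1, 12.0 and 11.6% in MPS, against 12.9, 12.6 and 12.5% in TPS, with overlap and a lower mean in MPS (exact permutation test, p = 0.4).

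**Figure D2:**
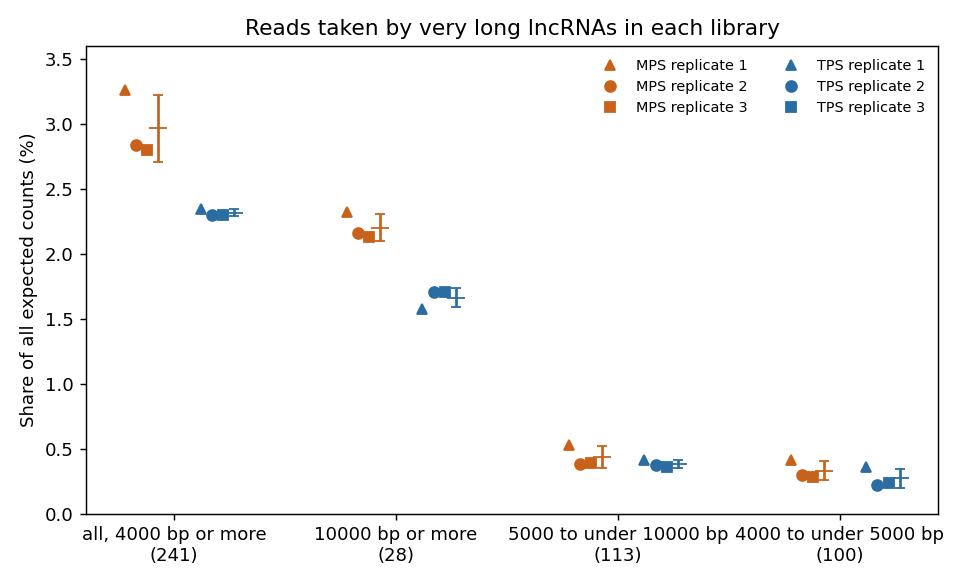
Share of all expected counts in percent (y axis, from 0) taken by all 241 very long lncRNAs and by 3 bands of length (x axis), for each MPS (orange) and TPS (blue) library, with symbols for the replicate number and bars for the mean and SD of 3 libraries. The MPS libraries lie above the TPS libraries for all members (2.80 to 3.26% against 2.30 to 2.35%) and at 10000 bp and more (2.13 to 2.32% against 1.58 to 1.71%), and the sections overlap in the 2 shorter bands.

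A few members held most of these reads. The 4 with the most counts held over 50% of the counts of all 241, and 26 held 90%. LTCONS_00022101 (15500 bp) alone had 16.8 to 19.7% of them per library. The 5 leading members (LTCONS_00022101, LTCONS_00022106, LTCONS_00030013, LTCONS_00030085 and LTCONS_00030071) took 1.99, 1.86 and 1.84% of all counts in MPS, against 1.35, 1.46 and 1.41% in TPS. Without them, the other 236 took 1.27, 0.970 and 0.953% in MPS, against 0.998, 0.837 and 0.888% in TPS. The sections then overlapped, although MPS was above TPS within each of the 3 pairs, and the difference shrank to 0.157 percentage points (exact permutation test, p = 0.3).

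The leading members had modest differences between the sections, and their spread within a section varied from member to member. LTCONS_00022101 had 357, 354 and 346 FPKM in MPS, against 288, 295 and 290 FPKM in TPS. This was the member with the most counts, and all MPS libraries lay above all TPS libraries by about the same step. Its log2 fold change of MPS over TPS was 0.29, with a standard error of 0.203 (edgeR, adjusted p = 0.642). LTCONS_00030013 (10072 bp), the highest by mean FPKM, had 417, 439 and 428 FPKM in MPS, against 202, 307 and 300 FPKM in TPS. TPS replicate 1 was the lowest library, and the sections did not overlap (log2 fold change 0.66, standard error 0.286, adjusted p = 0.375 from edgeR).

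LTCONS_00022106 (18507 bp) had 242, 204 and 205 FPKM in MPS, against 170, 167 and 158 FPKM in TPS (log2 fold change 0.40, standard error 0.195, adjusted p = 0.431 from edgeR). LTCONS_00030071 (7053 bp) had 339, 265 and 259 FPKM in MPS, against 235, 224 and 197 FPKM in TPS (log2 fold change 0.40, standard error 0.195, adjusted p = 0.432 from edgeR). For both, MPS replicate 1 was the highest library and the sections did not overlap. LTCONS_00022099 (25190 bp) had 48.0, 48.2 and 44.9 FPKM in MPS, against 32.1, 36.2 and 37.5 FPKM in TPS (log2 fold change 0.42, adjusted p = 0.404 from edgeR). Among the 10 members with the highest mean FPKM, all MPS libraries lay above all TPS libraries in 6, counting LTCONS_00030085, and in none did they lie below.

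The other 4 of the highest 10 overlapped between the sections. LTCONS_00011526 (5120 bp) had 59.8, 62.5 and 78.8 FPKM in MPS, against 67.9, 87.4 and 75.8 FPKM in TPS. LTCONS_00026364 (4262 bp) had 107, 56.5 and 41.0 FPKM in MPS, against 83.1, 67.5 and 56.7 FPKM in TPS, with replicate 1 the highest in both sections. Log2 fold changes were -0.20 and -0.02 (adjusted p = 0.839 and adjusted p = 0.996 from edgeR). The remaining pair, LTCONS_00033623 and LTCONS_00033624, is described with the replicate 1 libraries.

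**Figure D3:**
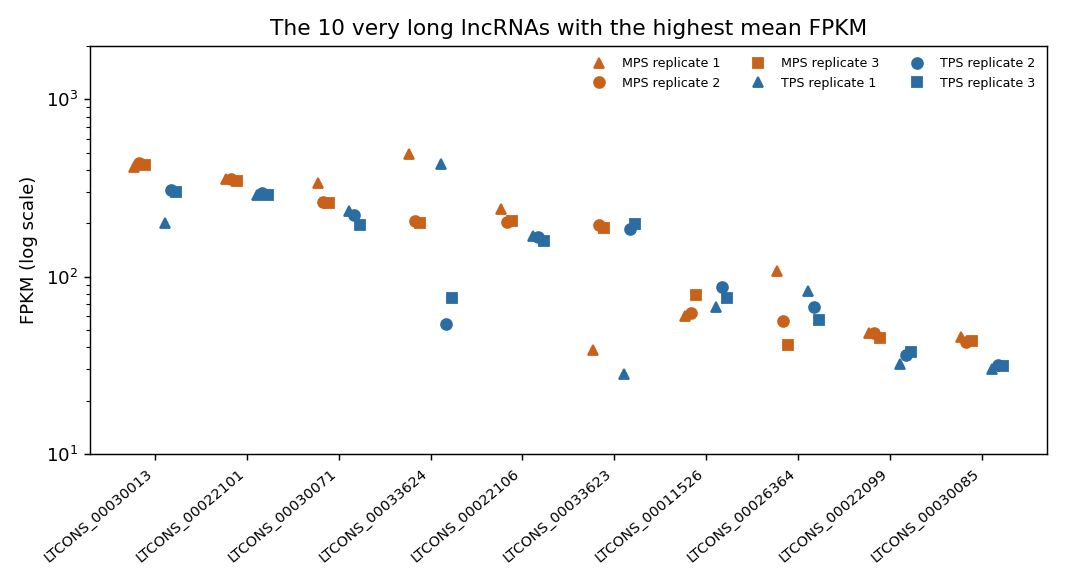
FPKM (y axis, log scale) of the 10 very long lncRNAs with the highest mean FPKM (x axis), with MPS libraries in orange left of TPS libraries in blue and 1 symbol per replicate number. MPS lies above TPS in 6 of the 10, as in LTCONS_00022101 (346 to 357 FPKM against 288 to 295 FPKM), while LTCONS_00033624 and LTCONS_00033623 part by replicate 1.

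The 3 longest transcripts did not behave alike. LTCONS_00030085 (76889 bp) had 45.6, 43.1 and 43.6 FPKM in MPS, against 30.1, 32.0 and 31.4 FPKM in TPS. These are 164102 to 184178 expected counts per library in MPS, against 121022 to 122412 in TPS, and the spread within each section was much smaller than the step between them (log2 fold change 0.51, standard error 0.197, adjusted p = 0.319 from edgeR). Over 18 alternatives with edgeR, limma and DESeq2, its adjusted p ran from 0.0372 to 0.661. None of them called it, with log2 fold changes of 0.41 to 0.60. LTCONS_00030090 (75976 bp) had 7.36, 8.69 and 9.06 FPKM in MPS, against 3.19, 6.86 and 6.30 FPKM in TPS, with replicate 1 the lowest of each section (log2 fold change 0.60, adjusted p = 0.580 from edgeR). LTCONS_00030089 (76289 bp) had 7.13, 6.20 and 5.45 FPKM in MPS, against 6.31, 4.25 and 6.27 FPKM in TPS, and the sections overlapped. The numbers of LTCONS_00030089 and LTCONS_00030090 are adjacent, and both had fractional counts, so that the division of reads between them is an estimate.

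The next in length also differed among themselves. LTCONS_00033880 (44626 bp) had 8.81, 8.39 and 7.61 FPKM in MPS, against 5.67, 6.64 and 7.20 FPKM in TPS (log2 fold change 0.35, adjusted p = 0.514 from edgeR), without overlap. LTCONS_00034697 (27254 bp) had 23.9, 23.0 and 26.0 FPKM in MPS, against 20.6, 25.8 and 27.2 FPKM in TPS. LTCONS_00034697 thus overlapped between the sections, with a log2 fold change of -0.01 and a standard error of 0.226 whose sign turned in 6 of 18 alternatives. LTCONS_00024050 (24537 bp) had 11.1, 9.83 and 8.73 FPKM in MPS, against 7.16, 7.31 and 7.80 FPKM in TPS (log2 fold change 0.41, adjusted p = 0.311 from edgeR).

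Across all transcripts in 1 fit, edgeR called none of the very long lncRNAs. Of the 241, 220 passed the filter on low counts, and calls required an adjusted p (Benjamini-Hochberg, over all 29520 transcripts tested) under 0.05 together with a log2 fold change of 1 or more in size. The 21 members that were not tested had means of at most 1.11 FPKM and up to 2789 counts over the 6 libraries. edgeR called 0 members, against 0.457% of all transcripts, of which 0.125% were higher in MPS and 0.332% lower. Unadjusted p-values under 0.05 were found for 21 members (11 higher and 10 lower), and for 14.5% of all transcripts. The smallest adjusted p of a member was 0.0893. In simulated libraries, all transcripts had 1 dispersion (a measure of spread between replicates) of 0.4, near the common value of 0.366 in these data. There, edgeR called 0 of 200 changed transcripts at a log2 fold change of 1, and 0 of 200 at 2. At a dispersion of 0.05 it called 72 and 191. The lack of calls thus does not show that the members did not differ. Single members may vary more or less than the simulated transcripts. DESeq2 called 2 members higher and 6 lower, of 218 with an adjusted p, against 2.36% and 4.20% of all transcripts (6.57% in both directions), and 34 members had an unadjusted p under 0.05, against 17.4% of all. limma on log2(FPKM + 0.5), a scale that understates changes of low transcripts, called 0 members, against 0.298% of all transcripts higher and 0.923% lower (1.22% in both directions), with 20 members at an unadjusted p under 0.05, against 13.6% of all. The shares of called members were near or below the background in all 3 tests.

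The log2 fold changes of the 220 tested members ran from -3.36 to 3.94, with a median of 0.11, against 0.01 over all transcripts tested. Positive values were found for 119 members and negative values for 101. The median was -0.03 under 5000 bp, 0.06 from 5000 to under 10000 bp and 0.38 at 10000 bp and more. Without MPS replicate 1, the median over members was -0.20. In that fit, 31 members had an unadjusted p under 0.05 from edgeR, 2 higher and 29 lower in MPS.

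Over all 241 members, 29 had all MPS libraries above all TPS libraries in FPKM and 11 had all below. These are 12.0% and 4.56% of the members, against 7.53% and 9.99% of all 39728 transcripts. Within all 3 replicate pairs, 58 members were higher in MPS and 39 lower, against 16.1% and 18.7% of all transcripts. The balance differed by length. All MPS libraries lay above all TPS libraries in 12 of the 28 members of at least 10000 bp (42.9%) and below in none. The same was found for 5 of the 42 assembled coding transcripts of at least 10000 bp (11.9%), with none below, and the difference between these classes was not tested. By contrast, under 5000 bp 8 of 100 lay above and 9 below. Depth differed as well, since counts grow with length. Of the 44 members with at least 10000 counts over the 6 libraries, 18 (40.9%) lay above and 0 below, against 13.0% in each direction for all transcripts with as many counts. Among the lncRNAs under 4000 bp with as many counts, 14.7% lay above and 9.24% below. Both the 12 and the 18 include members of nearby numbers, such as LTCONS_00022099, LTCONS_00022101 and LTCONS_00022106. These may not be independent, and the number of loci behind either count is not given in the sources.

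**Figure D4:**
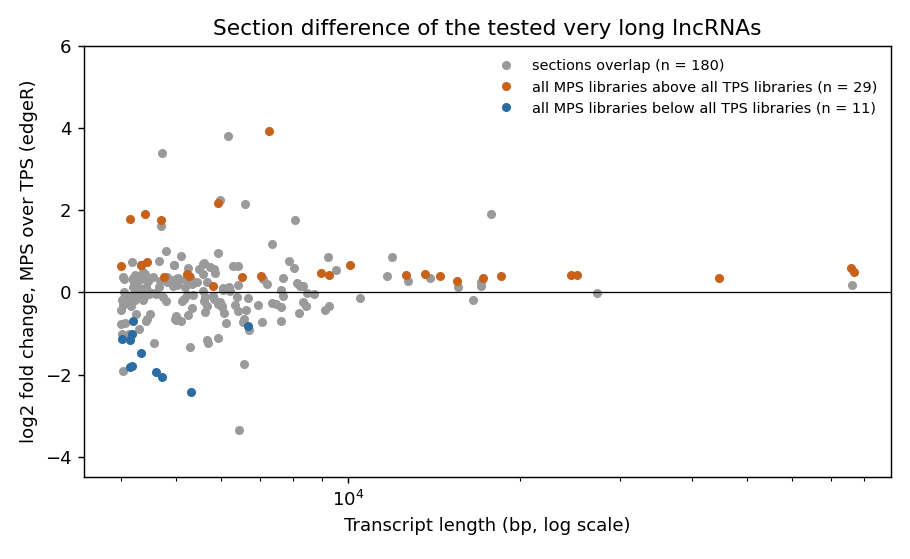
Log2 fold change of MPS over TPS from edgeR (y axis) against transcript length in bp (x axis, log scale) for the 220 tested very long lncRNAs, each point 1 transcript. Orange points (29) had all MPS libraries above all TPS libraries and blue points (11) had all below, and the long transcripts on the right lie between 0.29 and 0.66 where they are orange and at least 10000 bp long.

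The members with the lowest p among those whose sections did not overlap were mostly weakly expressed. Of the 11 lower in MPS, 9 measured under 5000 bp, and the longest was LTCONS_00032214 (6668 bp). LTCONS_00011728 (5312 bp) had 2.85, 1.10 and 0.78 FPKM in MPS, against 9.30, 7.67 and 8.09 FPKM in TPS. All MPS libraries were far below TPS, with MPS replicate 1 the highest of them. The log2 fold change was -2.42, with a standard error of 0.474 (edgeR, adjusted p = 0.0922). DESeq2 called it (adjusted p = 5.73e-05), as did edgeR with replicates 2 and 3 only (adjusted p = 0.0214) and with replicate 1 as a term (adjusted p = 0.0376), and over 18 alternatives the adjusted p ran from 5.73e-05 to 0.345.

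LTCONS_00000583 (4415 bp) had 5.04, 7.74 and 5.48 FPKM in MPS, against 1.04, 1.95 and 1.79 FPKM in TPS. Every MPS library was more than double the highest TPS library. The log2 fold change was 1.91 (standard error 0.365, adjusted p = 0.0893 from edgeR), and 3 of 18 alternatives called it, with adjusted p-values from edgeR, limma and DESeq2 of 0.000156 to 0.349. It belongs to a run of 4 following numbers with fractional counts. LTCONS_00022271 (4185 bp) had 0.24, 0.18 and 0.26 FPKM in MPS, against 1.09, 0.62 and 0.74 FPKM in TPS (log2 fold change -1.80, standard error 0.344, adjusted p = 0.0898 from edgeR). DESeq2 called it, and its adjusted p was 4.57e-05 to 0.345 over the alternatives. LTCONS_00022269 (4148 bp), of a nearby number, had 0.10, 0.29 and 0.09 FPKM in MPS, against 0.54, 0.74 and 0.41 FPKM in TPS (log2 fold change -1.81, adjusted p = 0.253 from edgeR).

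LTCONS_00038660 (4601 bp) had 0.43, 2.11 and 2.34 FPKM in MPS, against 8.39, 6.65 and 4.26 FPKM in TPS. MPS replicate 1 was the lowest of all libraries and TPS replicate 1 the highest. Its log2 fold change was -1.94 (standard error 0.658, adjusted p = 0.255 from edgeR), and DESeq2 called it (adjusted p = 0.0443). LTCONS_00019374 (4143 bp) had 1.08, 0.73 and 1.06 FPKM in MPS, against 2.10, 1.92 and 2.40 FPKM in TPS (log2 fold change -1.15, adjusted p = 0.110 from edgeR, adjusted p = 0.00129 from DESeq2). LTCONS_00049073 (4014 bp) had 1.01, 0.64 and 0.93 FPKM in MPS, against 1.60, 2.04 and 2.0 FPKM in TPS (log2 fold change -1.13, adjusted p = 0.159 from edgeR, adjusted p = 0.0169 from DESeq2). For both, the TPS mean was more than double the MPS mean, and the gap between the sections exceeded the spread within MPS.

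LTCONS_00013599 (4345 bp), whose counts were whole in all libraries, had 0.49, 0.61 and 0.81 FPKM in MPS, against 1.09, 2.14 and 2.03 FPKM in TPS (log2 fold change -1.47, adjusted p = 0.187 from edgeR, adjusted p = 0.0310 from DESeq2). LTCONS_00032214 (6668 bp) had 0.86, 0.71 and 0.71 FPKM in MPS, against 2.02, 0.98 and 1.14 FPKM in TPS (log2 fold change -0.82, adjusted p = 0.237 from edgeR). The sections of LTCONS_00032214 were separated by a small gap, and TPS replicate 1 stood farthest above MPS.

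On the higher side, LTCONS_00044912 (7268 bp) was near the limit of listing in TPS. It had 0.56, 0.20 and 0.24 FPKM in MPS (211, 71 and 82 counts), against 0, 0.02 and 0.04 FPKM in TPS (0, 8 and 14 counts). The log2 fold change was 3.94, with a standard error of 1.25 (edgeR, adjusted p = 0.229; DESeq2, adjusted p = 0.0132), and the fitted value depends on how counts near 0 are treated. LTCONS_00009721 (5923 bp) had 1.06, 0.83 and 0.40 FPKM in MPS, against 0.04, 0.13 and 0.32 FPKM in TPS (log2 fold change 2.19, adjusted p = 0.283 from edgeR), and the lowest MPS library was close to the highest TPS library. LTCONS_00019725 (4437 bp) had 2.13, 2.96 and 3.04 FPKM in MPS, against 1.62, 1.67 and 1.65 FPKM in TPS (log2 fold change 0.73, adjusted p = 0.237 from edgeR). The TPS libraries of this transcript hardly varied.

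Among the more abundant, LTCONS_00014193 (6515 bp) had 31.9, 26.9 and 26.5 FPKM in MPS, against 21.7, 21.1 and 22.8 FPKM in TPS (log2 fold change 0.39, adjusted p = 0.310 from edgeR), with whole counts in every library. LTCONS_00030020 (13635 bp) had 12.5, 11.2 and 9.56 FPKM in MPS, against 8.22, 7.70 and 8.70 FPKM in TPS (log2 fold change 0.44, adjusted p = 0.251 from edgeR). LTCONS_00042668 (5222 bp) had 5.38, 4.57 and 3.96 FPKM in MPS, against 3.43, 3.12 and 3.76 FPKM in TPS (log2 fold change 0.44, adjusted p = 0.283 from edgeR). For the last 2, MPS replicate 3 lay closest to TPS.

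The replicate number parted the very long lncRNAs more than the section did. In a principal component analysis of the 220 tested members, the leading axis (53.4% of the variance) set the replicate 1 pair against all other libraries, and the next axis (18.9%) set MPS against TPS. Both replicate 1 libraries lay above the other 4 in 101 of the 241 members (41.9%) and below them in 25 (10.4%), against 22.1% and 9.88% of all transcripts. The share above was 25.7% for lncRNAs under 4000 bp and 35.4% for coding transcripts of at least 4000 bp. The median FPKM over all members was 1.49, 0.73 and 0.83 in MPS, against 1.30, 0.95 and 0.97 in TPS (exact permutation test, p = 0.8), with replicate 1 the highest in both sections.

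LTCONS_00033624 and LTCONS_00033623, 2 abundant transcripts of following numbers, parted by replicate in opposite directions. LTCONS_00033624 (4671 bp) had 489, 207 and 201 FPKM in MPS, against 430, 53.9 and 75.7 FPKM in TPS. LTCONS_00033623 (4472 bp) had 38.4, 195 and 189 FPKM in MPS, against 28.1, 186 and 197 FPKM in TPS. Of their summed expected counts, LTCONS_00033624 took 93.0, 52.5 and 52.6% in MPS, against 94.1, 23.3 and 28.7% in TPS. By these expected counts, replicate 1 of both sections held nearly only the longer transcript. The division of reads between the 2 is an estimate by RSEM. In the other replicates the longer one was near an equal share in MPS and a minor one in TPS. With replicates 2 and 3 only, its log2 fold change was 1.63 (adjusted p = 0.0393 from edgeR), and with all libraries 0.77 (standard error 0.801, adjusted p = 0.788 from edgeR), with adjusted p-values of 0.0393 to 1.00 over the alternatives. The log2 fold change of LTCONS_00033623 was 0.02 (standard error 0.913), and its sections overlapped.

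Some members were found in replicate 1 of both sections alone. Taking 100 or more counts in each of the replicate 1 libraries, with fewer than 2 in any other library, as the limit, this held for 6 of the 241 members, against 0.675% of all transcripts, and the reverse for 1, against 0.206%. LTCONS_00027974 (8076 bp) had 1047 counts in MPS replicate 1, against 1742 in TPS replicate 1, and 0 in the other 4 libraries. LTCONS_00044730 (6887 bp) had 828 counts in MPS replicate 1, against 628 in TPS replicate 1, and 0 elsewhere. In both, the counts were whole.

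LTCONS_00003533 (6919 bp) had 675 counts in MPS replicate 1, against 338 in TPS replicate 1, and LTCONS_00017994 (7888 bp) had 563, against 135, both with 0 elsewhere. LTCONS_00018481 (4148 bp) had 238 counts, against 315, and 1 count in MPS replicate 3. The sixth, LTCONS_00025864 (4068 bp), named after its values were seen, had 284 counts, against 181, and 1 count in TPS replicate 3. None of these 6 passed the filter on low counts, which asks for enough counts in at least 3 libraries. On the reverse side, LTCONS_00023566 (5234 bp) had 0, 4.48 and 4.05 FPKM in MPS, against 0, 4.67 and 7.71 FPKM in TPS, and was thus not listed in replicate 1 of either section. It lies in a run with LTCONS_00023567 (5230 bp), and LTCONS_00017994 and LTCONS_00025864 lie in runs as well. Whether these patterns depend on how RSEM divided reads within a run was not tested. The sources do not say what sets the replicate 1 samples apart.

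**Figure D5:**
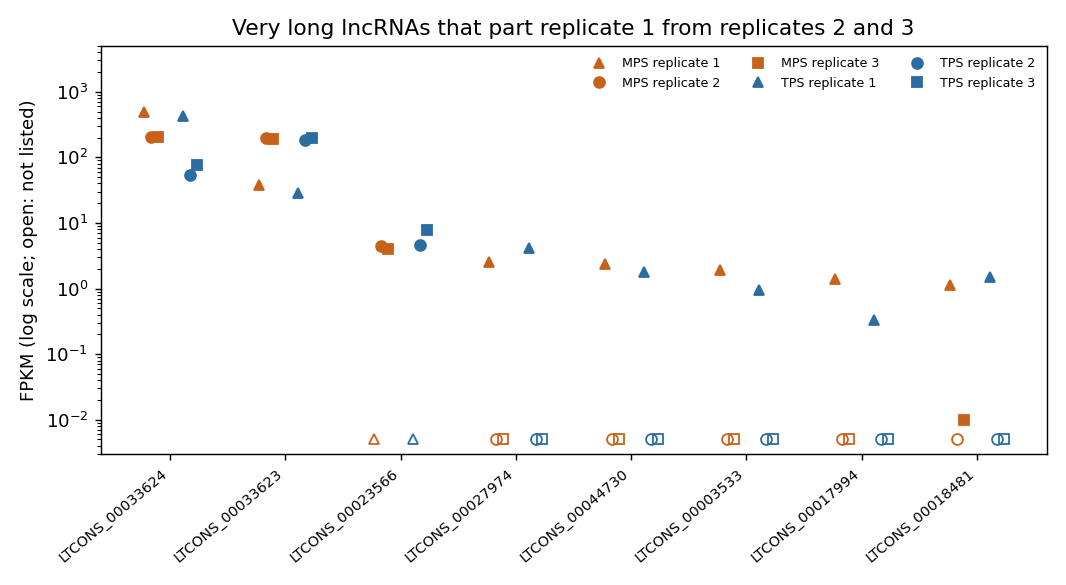
FPKM (y axis, log scale) of LTCONS_00033624, LTCONS_00033623 and 6 members present or missing in replicate 1 alone (x axis), with MPS libraries in orange left of TPS libraries in blue and triangles for replicate 1. Open symbols, drawn at 0.005 FPKM, are libraries in which the transcript is not listed, as for LTCONS_00027974 in all libraries but the replicate 1 pair.

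Within replicates 2 and 3 alone, edgeR called 2 members higher and 3 lower, against 0.785% and 1.46% of all transcripts in that fit (2.25% in both directions). An unadjusted p under 0.05 was found for 51 members (15 higher and 36 lower in MPS), against 22.7% of all. Besides LTCONS_00000583, LTCONS_00011728 and LTCONS_00033624, the called members were LTCONS_00001103 (10475 bp) and LTCONS_00001104 (9248 bp), named after their values were seen. The numbers of LTCONS_00001103 and LTCONS_00001104 are adjacent, so that they may not be 2 independent results. LTCONS_00001103 had 38.6, 6.42 and 6.71 FPKM in MPS, against 29.5, 12.8 and 15.1 FPKM in TPS. LTCONS_00001104 had 29.2, 6.07 and 6.29 FPKM in MPS, against 23.0, 13.1 and 16.1 FPKM in TPS. In both, replicate 1 was the highest of each section, and MPS was below TPS in replicates 2 and 3 but above it in replicate 1 (log2 fold change -1.12 and -1.27, adjusted p = 0.0397 and adjusted p = 0.0365 from edgeR with replicates 2 and 3 only). With all libraries their adjusted p was 0.982 and 0.919, and over the alternatives it reached 1.00 in both.

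With all libraries and replicate 1 as a term in the fit, 50 members had an unadjusted p under 0.05 (33 higher and 17 lower), against 21.5% of all. In this fit, edgeR called 2 members higher and 1 lower, against 0.772% and 1.84% of all transcripts (2.62% in both directions). Besides LTCONS_00000583 and LTCONS_00011728, this was LTCONS_00025260 (8066 bp), also named after its values were seen. It had 1.42, 0.61 and 0.48 FPKM in MPS, against 0.52, 0.10 and 0.15 FPKM in TPS, so that the sections overlapped through TPS replicate 1, while MPS was higher in each pair (log2 fold change 1.92, adjusted p = 0.0348 in that fit).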

How the data were processed

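Whole-transcriptome libraries of MPS and TPS bark (3 replicates each) were used. Small RNA and circRNA files were not used here. The authors assembled transcripts with StringTie after HISAT alignment, classed them as coding or non-coding with 4 predictors, and made the expected count values with Bowtie2 and RSEM. FPKM values were calculated by the authors per length of transcript and depth. The sources give no tool versions. Transcripts missing from a library were taken as 0.

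Rounded expected counts of all transcripts were compared with edgeR 4.0.16 (TMM, filterByExpr, quasi-likelihood test) in R 4.3.3. Standard errors are approximate, from dividing the size of the log2 fold change by the root of F. Alternatives were DESeq2 1.42.0, limma 3.58.1 (mean of at least 0.1 FPKM), other normalizations, filters, lengths and left-out libraries. Single values were compared by exact permutation tests in Python 3.11.15. On simulated data with 1 dispersion for all transcripts, edgeR recovered most moderate changes at a low dispersion. It recovered only large ones at a dispersion near the common value of these libraries. Replicates are called biological by the study.

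By the data, only the replicate 1 libraries of the sections pair clearly. Over lncRNAs, deviations of same-numbered libraries from the section means correlated at 0.678, 0.354 and 0.429 for replicates 1, 2 and 3. Those of replicates 2 and 3 of different numbers correlated about as much, at 0.400 and 0.424. The data thus do not pair replicates 2 and 3 by number, and statements on the 3 pairs rest on the replicate numbers of the labels.

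The members and lists were chosen with earlier results of these data known. Named were the 10 members highest in mean FPKM, the 5 longest, the 5 with the most counts, 8 per direction with the lowest p and no overlap, up to 6 confined to or missing from replicate 1, and those at the length limit. Depth was 49056682 to 52971221 counts per library, and reads are not independent molecules.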

Additional observations from a re-analysis of the deposited data

How the results depend on the processing

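The count of very long lncRNAs called, 0 with edgeR, was 8 with DESeq2, 5 with replicates 2 and 3 only and 3 with replicate 1 as a term. It was 0 in all other alternatives, among them the fit with the replicate number as a block and the fits without 1 library each (0 to 0). These fits called few transcripts of any kind. The block fit called 43 of all 29520 transcripts, the fit without a filter 20 of 39695, and the fits without 1 library each 0 to 28. A count of 0 members there thus says little about the members. The share of counts stayed higher in MPS throughout, by 0.501 to 0.734 percentage points without 1 library each and by 0.650 within replicate pairs (replicate block; exact sign-flip test, p = 0.25, the smallest possible). The excess in listed members, 2.67 per library, was -2 at 1 FPKM and more and -1.33 for lncRNAs of at least 3000 bp, and 0.667 to 6.17 without 1 library each. The difference in median FPKM, -0.0567 (also with the replicate block), was -0.293 to 0.0867 without 1 library each. Among the named members, the log2 fold change turned sign for LTCONS_00034697 (0.00995 with the replicate block, 0.0136 with replicate 1 as a term) and for LTCONS_00033623 (-0.0318 with replicates 2 and 3 only). Without 1 library each it was -0.18 to 0.10 for LTCONS_00034697, -0.49 to 0.47 for LTCONS_00033623, -0.45 to 0.21 for LTCONS_00026364 and -1.15 to 0.18 for LTCONS_00023566, none of which was called in any alternative. Of the members named outside the rule or not tested by edgeR, it was -1.44 to 0.25 for LTCONS_00001103 and -1.41 to 0.02 for LTCONS_00001104, both called lower with replicates 2 and 3 only, -0.87 to 0.30 for LTCONS_00018481 and -0.08 to 1.09 for LTCONS_00044730. The cause of these changes was not tested. Of the alternatives chosen after seeing the data, leaving out the 5 leading members left 0.157 percentage points of the share, and leaving out the 3 members over 70000 bp left 0.524. At the median length, members under 1.26 to 1.37 counts per library are not listed, so that differences below that depth were not detectable.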
